A study of Homo sapiens with 9 samples.

Results

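The centromere and kinetochore genes described here are a fixed list of 39 symbols, of which 38 had a probe set among the 23931 named genes of the arrays; PMF1, a subunit of the MIS12 complex, was not analysed here. The cells were H2009, an established line of human lung adenocarcinoma, fitted with CRISPR activation (CRISPRa), in which a cutting-dead Cas9 joined to VPR (the activating domains of VP64, p65 and Rta) goes to the place that a guide RNA matches. There were 3 groups of 3 arrays. The first group carried the guide sgRNA-A and the second carried sgRNA-B, both designed to raise the microRNAs of 14q32, and Control cells carried an empty guide vector. All groups were grown in the same medium with blasticidin and received no further treatment. Each group, Control included, was 1 clone with 3 biological replicates. A property of a clone, that of Control included, and an effect of a guide therefore cannot be told apart. On these arrays 0 of the 102 named genes from DLK1 to DIO3 on 14q32 changed in limma with either guide, with 1 at an unadjusted p under 0.05 for sgRNA-A and 4 for sgRNA-B; the submitters state that they had measured higher 14q32 microRNA levels by RT-qPCR beforehand, which was not analysed here.

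The centromere is the stretch of a chromosome marked by nucleosomes that hold the histone variant CENP-A in place of histone H3. On it sits the constitutive centromere network, a set of CENP proteins that stay bound through the cell cycle, and in mitosis this network recruits the outer kinetochore, in which the KNL1, MIS12 and NDC80 complexes together grip the microtubules of the spindle. The RZZ complex, the motor protein CENP-E and the checkpoint proteins join at the outermost layer and hold back anaphase until each chromosome is attached. Many of these genes, though not all, are transcribed mostly in G2 and mitosis, so that their messenger RNA level in a culture also follows how many of its cells are in those phases. The comparisons ask which of them differ between cells with each guide and cells with the empty vector, and whether the guides differ from each other.

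Promoter sequences are given for 5 of the genes that rose, since many promoters of mitotic genes share a CHR element, which is bound by the repressor and activator complexes of the cell cycle, and CCAAT boxes, which are bound by the factor NF-Y. The 150 bases before the RefSeq start are shown 5′ to 3′ on the strand of the gene, from build GRCh38.p14, and capitals mark a CHR (TTTGAA or TTCGAA) or a CCAAT box (CCAAT, or ATTGG where it lies on the other strand). The windows are chr2:26785906-26786055 on the plus strand for CENPA, and on the minus strand chr2:233854536-233854685 for HJURP, chr19:11155783-11155932 for SPC24, chr2:168890431-168890580 for SPC25 and chr17:59155187-59155336 for SKA2. The closing capitals of SPC25 begin a CHR that runs across the start.
CENPA: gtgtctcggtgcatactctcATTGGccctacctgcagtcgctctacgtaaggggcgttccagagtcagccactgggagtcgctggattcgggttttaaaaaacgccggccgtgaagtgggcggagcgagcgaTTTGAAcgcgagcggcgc
HJURP: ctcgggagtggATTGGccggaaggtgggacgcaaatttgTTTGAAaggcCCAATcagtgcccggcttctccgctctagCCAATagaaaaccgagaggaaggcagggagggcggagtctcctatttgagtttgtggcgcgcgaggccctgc
SPC24: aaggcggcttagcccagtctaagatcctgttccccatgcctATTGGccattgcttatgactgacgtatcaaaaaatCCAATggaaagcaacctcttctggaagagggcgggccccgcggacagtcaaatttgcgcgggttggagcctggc
SPC25: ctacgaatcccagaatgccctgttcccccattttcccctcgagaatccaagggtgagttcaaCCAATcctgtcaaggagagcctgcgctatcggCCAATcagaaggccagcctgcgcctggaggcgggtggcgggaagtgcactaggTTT
SKA2: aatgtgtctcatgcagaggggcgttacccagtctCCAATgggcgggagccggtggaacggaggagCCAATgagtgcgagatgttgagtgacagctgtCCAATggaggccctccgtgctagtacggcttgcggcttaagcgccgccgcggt

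CENPA held a CHR whose first base lay at -18, counted back from the base before the start, and a reversed CCAAT box at -130. HJURP had a CHR at -111 followed by CCAAT boxes at -101 and -72. SPC24 had CCAAT boxes at -109 and -74 and no CHR. In SPC25 the CCAAT boxes stood at -88 and -56. SKA2 held 3 CCAAT boxes in the stretch shown, at -116, -85 and -53, and no CHR in its 300 bases. The other risen members with an entry, not shown, were CENPK, NDC80 and NUF2. In their 300 bases CENPK held CCAAT boxes and no CHR, while NDC80 and NUF2 held a CHR and no CCAAT box. The 300 bases from 250 before to 50 after the start were searched on both strands. In them 16 of the 31 measured members with an entry held a CHR (51.6%). So did 16.4% of the 35116 promoters of the table. Of the 6492 genes with an entry that were at least as bright as the dimmest member, 15.6% did. A CCAAT box was found in 21 of the 31 (67.7%), against 34.6% and 44.3%. An E2F site (TTTGGCGC, TTTCGCGC, TTTCCCGC or TTTGCCGC) was found in 4 of the 31 (12.9%), against 3.31% and 7.52%. None of these motifs contains another, and TTCGAA, which reads the same on both strands, was counted once. A gene with more than 1 promoter, as 4 members have, was counted where any of them held the motif. The 35116 promoters were counted singly, so that share is per promoter and not per gene. Among the 8 members with an entry that rose in at least 1 comparison with Control, 5 held a CHR and 6 a CCAAT box; among the 23 not called in any, 11 held a CHR and 15 a CCAAT box. These counts describe the letters of the windows and are not evidence of binding.

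RNA levels are log2 units, so a difference of 1 is a doubling. A gene is said to have risen or fallen where limma's p, adjusted by Benjamini and Hochberg over all 23931 genes, was below 0.05, and SE is the standard error of the fit. All 38 members were brighter than 4.44 log2 units, the 95th percentile of genes for olfactory receptors, taken as silent, with means over the 9 arrays from 7.04 to 11.01. Of the epithelial markers 7 of 7 lay above that level, as did 2 of 4 markers of the lung adenocarcinoma lineage (NKX2-1 and SFTPC, but not NAPSA or SFTPB), 1 of 5 fibroblast markers, 0 of 3 leukocyte and 0 of 3 endothelial markers, and no marker outside the epithelial list changed in any comparison. The epithelial keratin KRT7 fell with sgRNA-A (-0.18; limma adjusted p = 0.017) and in the mean of both guides (-0.15; limma adjusted p = 0.0161). Correlations between arrays were 0.997 to 0.9982 within groups. The Control arrays differed for the members: 30 of 38 lay above their Control mean on replicate 2, 16 on replicate 1 and 9 on replicate 3. The members' median deviations were 0.047, -0.024 and -0.036 in that order. Leaving out replicate 2 gave the most rises of any such refit, so results without it are given with those lacking other arrays.

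Against Control, 4 of 38 members rose and 1 fell with sgRNA-A, where 0.957% of all genes rose and 1.22% fell (2.18% in either direction). With sgRNA-B 7 rose and 1 fell, where the shares over all genes were 1.56% and 1.51% (3.07% together). In the mean of both guides against Control 8 rose and 1 fell, against 1.77% and 1.8% of all genes (3.57% together), and 29 did not pass the test. The members' log2 fold changes had a median of 0.10 (sgRNA-A), 0.096 (sgRNA-B) and 0.092 (mean of both), and those of all genes 0.0036, -0.0039 and 0.00071; the sgRNA-A median was 0.057 without Control replicate 1. The members are brighter than most genes, and brighter genes are called more often: among the 7910 genes at least as bright as the dimmest member, 2.5% rose with sgRNA-A, 3.89% with sgRNA-B and 4.51% in the mean. Of these 7910 genes 2.68%, 3.91% and 4.32% fell in the same order, against 2.63% of the members in each comparison. CENPA, HJURP, MIS18A and SKA2 rose and KNTC1 fell with both guides, where 0.568% of all genes rose with both; NDC80, SPC24 and SPC25 rose with sgRNA-B; CENPK and NUF2 rose in the mean of both. The guides are set against the same 3 Control arrays, so their calls are not independent of each other. These are bulk RNA levels, in which more cells in a phase of the cell cycle and more RNA per cell cannot be told apart. Without Control replicate 2 the counts that rose were 5 with sgRNA-A, 12 with sgRNA-B and 11 in the mean, and KNTC1 was not called in any of the 3. Leaving out other arrays lowered them to 1 with sgRNA-A (without sgRNA-A replicate 3), 5 with sgRNA-B (without sgRNA-B replicate 1 or Control replicate 3) and 4 in the mean (without Control replicate 1), and 2 rose with sgRNA-A in the refits lacking replicate 2 of that guide or replicate 1 or 3 of Control; the mean had 5 without Control replicate 3.

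**Figure D1:**
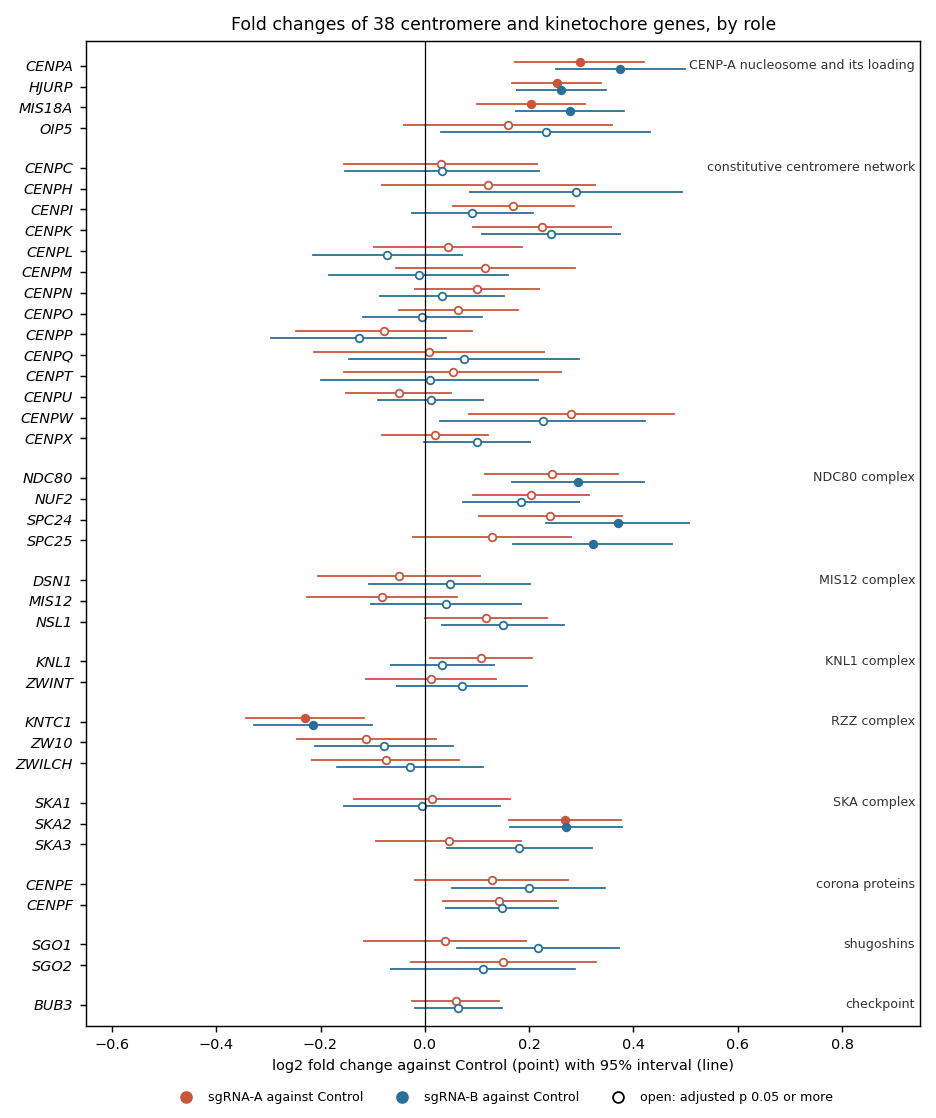
Log2 fold change against Control of each of the 38 members (points, red for sgRNA-A and blue for sgRNA-B) with its unadjusted 95% interval from limma (lines), ordered by the role of the protein; filled points have an adjusted p under 0.05. The genes of CENP-A and its loading and of the NDC80 complex lie to the right of 0 with both guides, most of the constitutive network lies near 0, and KNTC1 is the only filled point to the left.

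Of the 4 genes for the histone CENP-A and the proteins that load it, 3 rose with each guide. CENPA, which encodes the histone itself, measured 9.11, 9.08 and 9.04 on the Control arrays, 9.30, 9.45 and 9.37 with sgRNA-A and 9.47, 9.36 and 9.52 with sgRNA-B. Every array with a guide lay above every Control array, and the guides overlapped. The level was higher than Control by 0.30 log2 units in sgRNA-A cells (SE 0.06; limma adjusted p = 0.017) and by 0.38 in sgRNA-B cells (SE 0.06; limma adjusted p = 0.00309), which are 1.23-fold and 1.30-fold. HJURP, the chaperone that deposits CENP-A, measured 10.88, 10.87 and 10.76 in Control, 11.08, 11.12 and 11.07 with sgRNA-A, and 11.12, 11.07 and 11.10 with sgRNA-B. Its groups were separate from Control as well, with log2 fold changes of 0.25 (limma adjusted p = 0.00515) and 0.26 (limma adjusted p = 0.00294), and it kept its call with both guides in each of the 9 refits that left out 1 array.

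MIS18A, a subunit of the complex that licenses centromeres for new CENP-A, read 9.81, 9.80 and 9.75 in Control, 10.07, 9.97 and 9.94 with sgRNA-A and 10.03, 10.12 and 10.04 with sgRNA-B. It was higher by 0.20 for sgRNA-A (limma adjusted p = 0.0454) and by 0.28 for sgRNA-B (limma adjusted p = 0.00639). Its partner in that complex, OIP5, was 6.92, 6.98 and 7.07 in Control, 7.05, 7.31 and 7.09 with sgRNA-A and 7.26, 7.12 and 7.29 with sgRNA-B. The sgRNA-B arrays of OIP5 lay above Control and the sgRNA-A arrays overlapped it, and neither difference passed (0.16 and 0.23; limma adjusted p = 0.51 and 0.243). In the mean of both guides 3 of 4 genes of this group rose, with a median log2 fold change of 0.25. With sgRNA-A the call of CENPA was lost when replicate 2 (limma adjusted p = 0.0676) or 3 (0.0573) of that guide or replicate 3 of Control (0.0579) was left out, and that of MIS18A in all 9 such refits (0.0503 to 0.157); with sgRNA-B and in the mean both kept it in all 9.

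The NDC80 complex is the rod that binds the microtubule, with NDC80 and NUF2 at the microtubule end and SPC24 and SPC25 at the end that faces the chromosome. NDC80 measured 9.20, 9.34 and 9.10 in Control, 9.48, 9.43 and 9.45 with sgRNA-A and 9.48, 9.54 and 9.49 with sgRNA-B. All arrays with a guide were higher than the highest Control array, replicate 2, and the rise was called with sgRNA-B (log2 fold change 0.29, SE 0.06; limma adjusted p = 0.0153) while the value with sgRNA-A was 0.24 (limma adjusted p = 0.0516). SPC24 read 8.92, 9.02 and 8.96 in Control, 9.25, 9.21 and 9.16 with sgRNA-A and 9.37, 9.45 and 9.20 with sgRNA-B. It rose with sgRNA-B (log2 fold change 0.37, SE 0.06; limma adjusted p = 0.00641), and with sgRNA-A all arrays were higher than Control at 0.24 (limma adjusted p = 0.0756).

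SPC25 was 8.02, 7.98 and 7.82 in Control, 8.11, 8.10 and 7.99 with sgRNA-A and 8.23, 8.30 and 8.25 with sgRNA-B. Its sgRNA-A arrays overlapped Control and its sgRNA-B arrays lay above both other groups, with log2 fold changes of 0.13 (limma adjusted p = 0.474) and 0.32 (limma adjusted p = 0.0247). NUF2 measured 10.14, 10.28 and 10.20 in Control, 10.42, 10.42 and 10.39 with sgRNA-A and 10.46, 10.29 and 10.43 with sgRNA-B; it passed only in the mean of both guides (0.19, SE 0.05; limma adjusted p = 0.0282). In that mean 3 of the 4 subunits rose, with a median log2 fold change of 0.25, and SPC25 did not pass (limma adjusted p = 0.0632). With sgRNA-B the call of NDC80 was lost without sgRNA-B replicate 1 or 2 or Control replicate 1 or 3 (limma adjusted p up to 0.0649), and that of SPC25 without any 1 of the sgRNA-B replicates or Control replicate 3 (up to 0.0982). In the mean, NDC80 was not called without Control replicate 1 (0.0575) or 3 (0.0531), SPC24 without Control replicate 1 (0.0548), and NUF2 without sgRNA-A replicate 1 or 2, sgRNA-B replicate 1 or 3, or Control replicate 1 or 3 (up to 0.167). With sgRNA-A, NDC80 passed in 1 of the 9 refits that left out 1 array, that without Control replicate 2 (limma adjusted p = 0.0163). In the others its limma adjusted p reached 0.166.

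**Figure D2:**
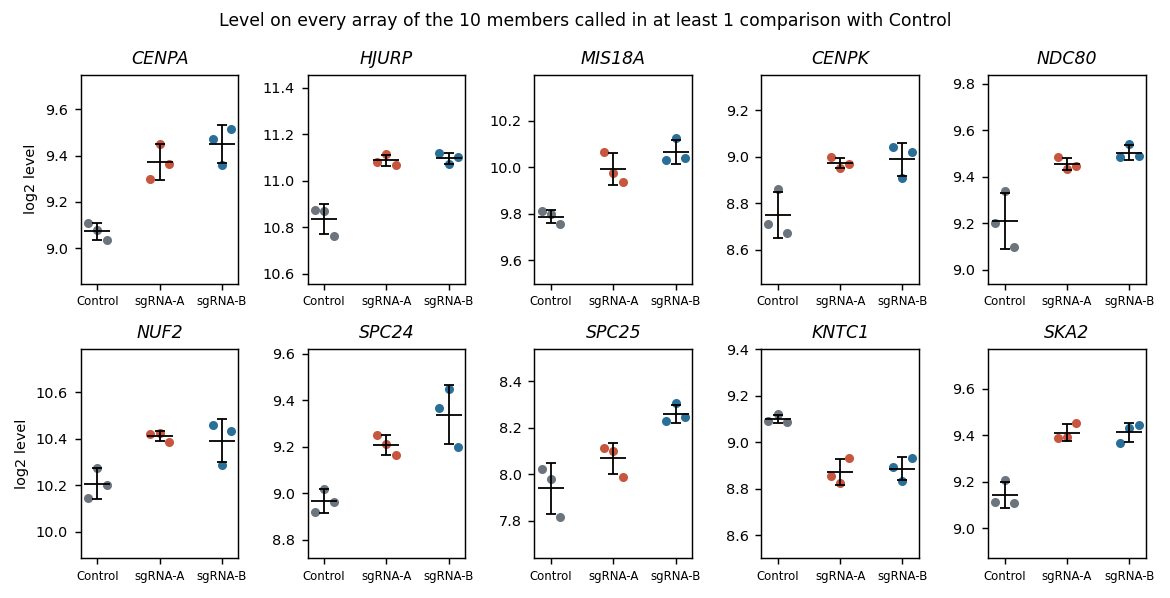
Log2 level on every array (points) of the 10 members called in at least 1 comparison with Control, with the mean and SD of each group of 3 (black); each panel spans the same range of log2 units. The arrays of both guides lie above Control for CENPA, HJURP, MIS18A, CENPK, NDC80, NUF2, SPC24 and SKA2 and below it for KNTC1, and only the sgRNA-B arrays do for SPC25.

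In the mean of both guides the MIS12 and KNL1 complexes gave smaller values than the NDC80 complex. The MIS12 complex links the inner and the outer kinetochore, and 0 of its 3 measured subunits passed in any comparison. NSL1 had its lowest p, with 10.08, 10.02 and 10.13 in Control, 10.21, 10.12 and 10.25 with sgRNA-A and 10.24, 10.13 and 10.30 with sgRNA-B. Its sgRNA-A arrays overlapped Control and its sgRNA-B arrays all lay above it, the lowest by less than the rounding, and the mean difference was 0.13 (limma adjusted p = 0.168). For DSN1 the mean difference was -0.00090, with an unadjusted 95% interval from -0.14 to 0.13, and for MIS12 it was -0.020 (-0.15 to 0.10). KNL1, the scaffold of the checkpoint proteins, was 9.66, 9.77 and 9.69 in Control, 9.82, 9.83 and 9.80 with sgRNA-A and 9.77, 9.75 and 9.71 with sgRNA-B. Only its sgRNA-A arrays lay above Control, by 0.11, and it was not called (limma adjusted p = 0.314). Its binding partner ZWINT differed by 0.042 in the mean (-0.066 to 0.15).

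In the constitutive centromere network 1 of 14 genes rose in the mean of both guides, 0 fell and 13 did not pass. For either guide alone 0 passed limma's adjusted test. With each guide 3 of the 14 had an unadjusted limma p under 0.05, against 13.4% of all genes for sgRNA-A and 14.7% for sgRNA-B. Of the 7910 genes at least as bright as the dimmest member, 1981 did for sgRNA-A and 2307 for sgRNA-B. The median of the network was 0.059 for sgRNA-A and 0.033 for sgRNA-B. The gene that rose was CENPK, a part of the subcomplex with CENPH and CENPI that bridges to the outer kinetochore. CENPK measured 8.71, 8.86 and 8.67 in Control, 9.0, 8.95 and 8.97 with sgRNA-A and 9.04, 8.91 and 9.02 with sgRNA-B. Its groups did not overlap Control, and the mean log2 fold change was 0.23 (SE 0.05; limma adjusted p = 0.027). That call was lost without sgRNA-A replicate 1, sgRNA-B replicate 1 or 3, or Control replicate 1 or 3 (limma adjusted p up to 0.136). All arrays with a guide also lay above Control for CENPI (mean difference 0.13) and the histone-fold protein CENPW (0.25), neither of which passed (limma adjusted p = 0.176 and 0.11). CENPH followed Control replicate 2: its Control arrays read 7.43, 7.84 and 7.52, against 7.80, 7.70 and 7.67 with sgRNA-A and 7.89, 7.88 and 7.89 with sgRNA-B. It was called, with sgRNA-B and in the mean, only where that Control array was left out.

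For the other members of the network the mean of both guides differed from Control by -0.10 to 0.067, and none was called. Guides of opposite sign partly cancel in that mean, as for CENPL, at 0.044 with sgRNA-A and -0.072 with sgRNA-B. CENPC, which binds the CENP-A nucleosome directly, differed by 0.032 in the mean of both guides (unadjusted 95% interval -0.13 to 0.19). CENPN, which also reads that nucleosome, differed by 0.067 (-0.036 to 0.17), and its partner CENPL by -0.014 (-0.14 to 0.11). Within the group of CENPO, CENPP, CENPQ and CENPU the mean differences ran from -0.10 for CENPP to 0.042 for CENPQ. CENPT and CENPX, histone-fold proteins like CENPW, differed by 0.032 and 0.060, and CENPM by 0.052. The upper bounds for CENPU (0.067) and CENPL (0.11) lie below the values measured for CENPA and HJURP; for CENPH and CENPW the interval reaches 0.38 and 0.42.

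The RZZ complex, which recruits dynein and checkpoint proteins to kinetochores without attached microtubules, was the group with values below 0 for all 3 subunits in each comparison with Control. KNTC1, its largest subunit, also called ROD, measured 9.09, 9.12 and 9.09 in Control, 8.86, 8.82 and 8.93 with sgRNA-A and 8.89, 8.83 and 8.93 with sgRNA-B. Every array with a guide was lower than every Control array. KNTC1 fell by 0.23 on the log2 scale with sgRNA-A (limma adjusted p = 0.0399) and fell by 0.21 with sgRNA-B (limma adjusted p = 0.0444), and in the mean the value was -0.22 (SE 0.05; limma adjusted p = 0.015). ZW10 read 8.48, 8.51 and 8.53 in Control, 8.47, 8.40 and 8.30 with sgRNA-A and 8.46, 8.45 and 8.36 with sgRNA-B; these arrays too lay below Control, by less, and the mean of -0.095 did not pass (limma adjusted p = 0.454). ZWILCH overlapped Control with both guides (-0.052). The KNTC1 calls lay close to the threshold: in the refits that left out 1 array the call with sgRNA-A was lost in 8 of 9, all but that without sgRNA-B replicate 2 (limma adjusted p up to 0.127), and with sgRNA-B in 8 of 9, all but that without sgRNA-A replicate 3 (up to 0.157). In the mean of both guides it was lost without Control replicate 1 (0.0671) or 2 (0.0554). It was also lost for both guides with the replicate number as a block (0.0564 and 0.0586).

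The SKA complex stabilises the grip of the NDC80 complex on microtubules, and its subunits differed from each other. SKA2 measured 9.11, 9.21 and 9.11 in Control, 9.39, 9.39 and 9.45 with sgRNA-A and 9.37, 9.43 and 9.44 with sgRNA-B. The guides were nearly equal and both were separate from Control, with log2 fold changes of 0.27 (SE 0.05; limma adjusted p = 0.0136) and 0.27 (SE 0.05; limma adjusted p = 0.00966). The sgRNA-A call was lost without sgRNA-A replicate 3 (limma adjusted p = 0.0614) or Control replicate 1 (0.0699). SKA1 differed by 0.0040 in the mean of both guides, with an unadjusted 95% interval from -0.13 to 0.13, which lies below the interval of SKA2 (0.18 to 0.36). SKA3 was 9.79, 9.95 and 9.71 in Control, 9.90, 9.87 and 9.82 with sgRNA-A and 9.92, 10.10 and 9.97 with sgRNA-B, and both guides overlapped Control. It was called with sgRNA-B only where Control replicate 2 was left out.

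Of the large corona proteins, CENPF measured 9.47, 9.51 and 9.43 in Control, 9.54, 9.68 and 9.62 with sgRNA-A and 9.61, 9.66 and 9.58 with sgRNA-B. All arrays with a guide were higher, by 0.15 in the mean, but it did not pass (limma adjusted p = 0.0939). CENPE, the motor that carries chromosomes to the spindle equator, differed by 0.16 (limma adjusted p = 0.178), and its sgRNA-A arrays overlapped Control. It was called, with sgRNA-B and in the mean, only where Control replicate 2 was left out. SGO1, the shugoshin that protects centromeric cohesion, was 8.96, 9.27 and 9.0 in Control, 9.08, 9.14 and 9.12 with sgRNA-A and 9.25, 9.34 and 9.29 with sgRNA-B. Its Control replicate 2 lay above all sgRNA-A arrays, and the mean difference of 0.13 was not called (limma adjusted p = 0.369). That difference was called in 1 of the 9 refits that left out 1 array, that without Control replicate 2 (limma adjusted p = 0.029). In the others the limma adjusted p reached 0.784. SGO2 differed by 0.13 (limma adjusted p = 0.437). BUB3, the checkpoint protein that carries BUB1 to KNL1, read 10.91, 10.97 and 10.94 in Control, 10.94, 11.04 and 11.02 with sgRNA-A and 11.00, 10.97 and 11.03 with sgRNA-B, a mean difference of 0.062 (limma adjusted p = 0.435) with its arrays close together.

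Between the guides 0 of 38 members differed in limma after adjustment, where 0.104% of all genes did (0.0418% higher and 0.0627% lower with sgRNA-A), and 2 had an unadjusted p below 0.05, a smaller share than the 10.5% of all genes. The members' median difference, sgRNA-A minus sgRNA-B, was -0.025, and 12 of 38 were above 0. The arrays of the guides did not overlap for 2 members that were higher with sgRNA-A and 6 that were lower, against 8.56% and 7.34% of all genes. Of the 7910 genes at least as bright as the dimmest member, 929 were higher and 798 lower in this way. The pair with an unadjusted p under 0.05 were SPC25 (-0.19, unadjusted 95% interval -0.34 to -0.041; limma adjusted p = 0.367) and SGO1 (-0.18, -0.33 to -0.023; limma adjusted p = 0.41). For the members called with both guides the intervals were -0.20 to 0.046 for CENPA, -0.094 to 0.077 for HJURP, -0.18 to 0.029 for MIS18A, -0.11 to 0.11 for SKA2 and -0.13 to 0.098 for KNTC1. NDC80 and SPC24, which passed with sgRNA-B and not with sgRNA-A, gave -0.050 (-0.18 to 0.077) and -0.13 (-0.27 to 0.0090), so a difference between the guides was not shown for them.

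Of 29 other kinetochore, checkpoint and passenger genes 27 were measured; 3 rose and 0 fell with sgRNA-A, 4 rose and 0 fell with sgRNA-B, and in the mean of both guides 8 rose, 1 fell and 18 did not pass. Of all genes 0.957%, 1.56% and 1.77% rose in the same order, and 1.8% fell in the mean. Of the 7910 genes at least as bright as the dimmest member, 2.5%, 3.89% and 4.51% rose, and 4.32% fell in the mean. The kinase AURKB, the active part of the chromosomal passenger complex, rose by 0.20 in the mean (limma adjusted p = 0.00451). So did its partner CDCA8, or borealin, by 0.25 (limma adjusted p = 0.00652), the checkpoint kinase BUB1 by 0.20 (limma adjusted p = 0.00591) and the microtubule depolymerase KIF2C by 0.22 (limma adjusted p = 0.0172). BUB1 places a mark on the chromatin of centromeres to which shugoshins bind, and the passenger complex corrects wrong attachments at NDC80. The gene that fell was CLASP1 (-0.17; limma adjusted p = 0.0454), which promotes microtubule growth at kinetochores.

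By list median, G2/M markers were higher than Control and S-phase markers lower. Of 12 G2/M markers 4 rose with sgRNA-A, 7 with sgRNA-B and 7 in the mean, 0 fell, and the median log2 fold change in the mean was 0.18. Of all genes 0.957%, 1.56% and 1.77% rose in the same order. Of the 7910 genes at least as bright as the dimmest member, 2.5%, 3.89% and 4.51% rose. CDC20, the activator of the anaphase-promoting complex, rose by 0.28 (limma adjusted p = 0.000166), the phosphatase CDC25C by 0.37 (limma adjusted p = 0.00326), and the cyclins CCNB2 by 0.23 (limma adjusted p = 0.00587) and CCNA2 by 0.16 (limma adjusted p = 0.0124). Of 14 S-phase markers 0 rose in any comparison with Control, and 2 fell in the mean: the helicase subunit MCM6 (-0.19; limma adjusted p = 0.00513) and the cyclin CCNE2 (-0.30; limma adjusted p = 0.0184), with a list median of -0.056. In the mean 1.8% of all genes fell, and 4.32% of those 7910 genes. Among 13 regulators of cell cycle promoters, FOXM1, an activator of G2/M genes, rose in the mean of both guides (0.20, limma adjusted p = 0.0127). RBL1, the pocket protein p107, fell in that mean (-0.27, limma adjusted p = 0.0218). Both were also called with sgRNA-A. With sgRNA-B 0 of the 13 passed (limma adjusted p = 0.0568 for FOXM1 and 0.0853 for RBL1). The list median in the mean was -0.018. The median difference of the 12 G2/M markers from their Control mean was 0.16 to 0.17 on the sgRNA-A arrays, 0.15 to 0.21 on the sgRNA-B arrays and -0.026 to 0.027 on the Control arrays. For the 14 S-phase markers it was -0.072 to -0.046, -0.072 to -0.035 and -0.017 to 0.019. The part of these shifts in the members' values was not tested.

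**Figure D3:**
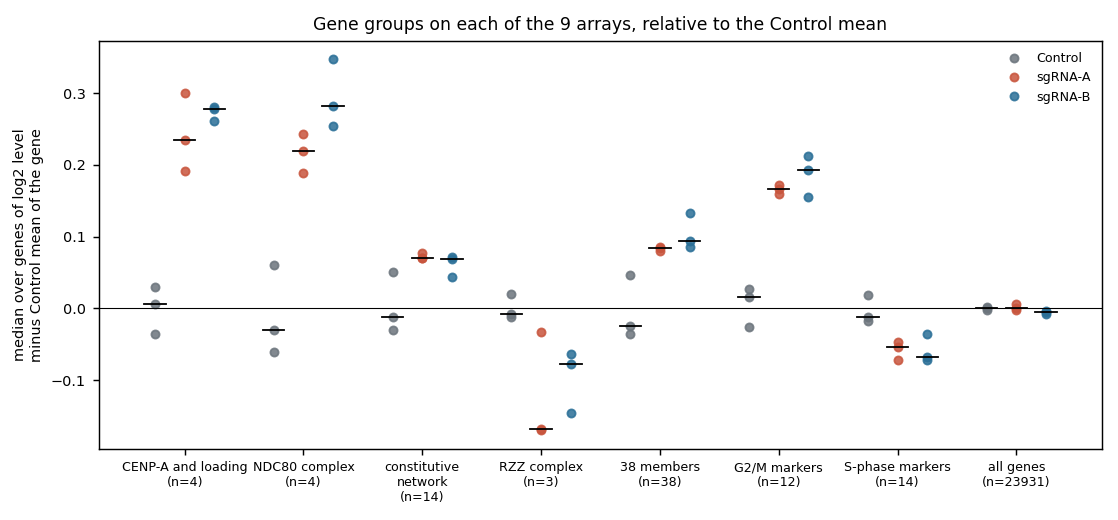
Median over the genes of a group of the log2 level minus the gene's Control mean, for each of the 9 arrays (points; black bars are the median of 3 arrays). CENP-A and loading genes, NDC80 complex genes and G2/M markers lie above the Control arrays with both guides, RZZ genes and S-phase markers below them, and all 23931 genes near 0.

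On the array medians the NDC80 complex stood 0.19 to 0.24 above the Control mean with sgRNA-A and 0.25 to 0.35 with sgRNA-B, with Control at -0.060 to 0.061. The CENP-A group stood at 0.19 to 0.30, 0.26 to 0.28 and -0.036 to 0.029. The constitutive network reached 0.071 to 0.077, 0.043 to 0.071 and -0.030 to 0.050, so that for this network its sgRNA-B arrays overlapped Control. The RZZ genes lay at -0.17 to -0.032, -0.15 to -0.064 and -0.012 to 0.020. Across all 38 members the medians were 0.080 to 0.086 with sgRNA-A, 0.085 to 0.13 with sgRNA-B and -0.036 to 0.047 in Control, the last value being Control replicate 2. All 3 arrays of each guide lay above Control for 12 members with sgRNA-A and 17 with sgRNA-B, where 8.98% and 9.67% of all genes did, and below it for 2 with each, where 8.78% and 10.5% did. All 6 arrays with a guide lay above Control for 11 members and below it for 2, against 4.08% and 4.18% of all genes. These shares were larger among the 7910 genes at least as bright as the dimmest member. Of these, 1116 lay above Control with sgRNA-A, 1245 with sgRNA-B and 651 on all 6 arrays. Below it lay 1099, 1328 and 659 in the same order.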

How the data were processed

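The samples were 9 cultures of H2009 cells in 3 groups of 3, grouped by their titles, with 1 clone per group and biological replicates per the series' design text; p-values cover the spread between these cultures. The RNA integrity number was 10 throughout, per the labels' protocols. The authors deposited 1 log2 value per probe set and array, made with RMA per the submitters' processing notes; its settings and version are not given in the sources used here. This method makes the distributions of the arrays equal, so a shift of all genes on an array would be removed, and each array had a median of 4.913. Of 24733 probe sets, 23934 had 1 symbol in the platform annotation, 0 had several and 799 had none; of 3 symbols with more than 1 probe set the brightest was kept. No filter on dim genes was applied. Alternatives were filters on dim genes, other normalizations and variance models, array weights, only the groups compared, the replicate number as a block, and each array left out.

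One fit over all 9 arrays used group means (limma 3.58.1 under R 4.3.3, lmFit, eBayes with trend=TRUE). Its steps were run on simulated data with independent noise, where recovery was required only for changes larger than any member showed. Values on every array are given for each member called in any comparison and for the lowest adjusted p in a role group without one; other lists are given by counts with up to 4 genes of the lowest p. Further values (OIP5, CENPH, ZW10, SKA3) were chosen after seeing the data, as was the set of genes at least as bright as the dimmest member. Members and lists were chosen with earlier results of these data known, so their direction is not independent evidence. Sequences are RefSeq promoters of GRCh38.p14. The number of arrays limits the precision.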

Additional observations from a re-analysis of the deposited data

Results flagged for a closer look

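For CENPL and MIS12 all 3 arrays of one guide lay on one side of the Control mean and all 3 of the other guide on the opposite side. CENPL read 8.75, 8.74 and 8.70 with sgRNA-A and 8.50, 8.68 and 8.66 with sgRNA-B, around a Control mean of 8.68, a difference between the guides of 0.12 (limma adjusted p = 0.563). MIS12 read 8.39, 8.38 and 8.20 with sgRNA-A and 8.44, 8.42 and 8.47 with sgRNA-B, around a Control mean of 8.40, a difference of -0.12 (limma adjusted p = 0.541). Neither difference passed the test. Some arrays lay very near the Control mean: CENPL at -0.0085 on sgRNA-B replicate 2 and MIS12 at -0.014 on sgRNA-A replicate 1. The pattern was looked for among the members only, so its share over all genes is not known.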

How the results depend on the processing

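Leaving out 1 array at a time, the members that rose numbered 1 to 5 with sgRNA-A, 5 to 12 with sgRNA-B, 4 to 11 in the mean of both guides and 0 to 0 between the guides; those that fell numbered 0 to 1 in each comparison with Control and 0 between the guides. Their median log2 fold change ran from 0.057 to 0.13, 0.077 to 0.13, 0.073 to 0.12 and -0.043 to -0.014 in the same order. Of the other 10 settings, removing the dimmest 50% of genes raised the rises with sgRNA-A from 4 to 8, adding CENPK, NDC80, NUF2 and SPC24, as fewer genes were tested. The fall of KNTC1 was lost for sgRNA-A and sgRNA-B, leaving 0, with untrended eBayes, with only the compared groups fitted and with the replicate block, and for sgRNA-B with robust eBayes also; the cause was not tested. With the replicate block 3 members rose with sgRNA-A, 7 with sgRNA-B and 7 in the mean; MIS18A with sgRNA-A (limma adjusted p = 0.056) and NUF2 in the mean (limma adjusted p = 0.0507) lost their calls. The numbers were not taken as pairs: same-numbered arrays of different groups had correlations of their deviations from -0.15 to 0.14, 1 of 9 over 0.1, and 6 of 9 arrays correlated best with an array of their own number, a hint from the data only. Untrended eBayes also ended the calls of MIS18A with sgRNA-A and of CENPK and NUF2 in the mean. No called member changed sign under any of these settings, but members near 0 did: with sgRNA-A the number above 0 went from 31 to as low as 26, without Control replicate 3. Quantile normalization once more, median centring and averaging probe sets changed no call among the members. Over all genes the calls went from 522 with sgRNA-A to 788 after removing the dimmest 50% and to 321 with only the compared groups fitted, and leaving out an array gave 223 to 435 with sgRNA-A, 353 to 735 with sgRNA-B (735), 405 to 767 in the mean (855) and 6 to 30 between the guides (25; 39 after removing the dimmest 50%). Only the groups compared could not be fitted separately for the mean, which uses all 3 groups.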

Other observations

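The start of SKA2 lies 560 bases from that of PRR11, a gene on the opposite strand, in the RefSeq order of GRCh38.p14, and SKA2 hosts the microRNA genes MIR454 and MIR301A. These neighbours were chosen after the values of SKA2 were seen. PRR11 read 11.04, 11.03 and 11.06 in Control, 11.29, 11.22 and 11.19 with sgRNA-A and 11.26, 11.29 and 11.30 with sgRNA-B, and rose with both guides (0.19 and 0.24; limma adjusted p = 0.0178 and 0.00313), with all arrays above Control. MIR454 and MIR301A had levels of 3.49 to 4.13 on all arrays, below the level of silent genes, and did not pass (limma adjusted p of 0.481 or more).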
